A study of Mus musculus with 12 samples.

Results

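Xdh, Csn3 and Glycam1 are genes of milk secretion, chosen by name, and they make up 3 of the 7318 genes in the deposited count table. All were followed across the 12 libraries of a mouse mammary gland study. The libraries form 4 groups of 3: RNA with AP20187, RNA with vehicle, ribosome footprints with AP20187 and ribosome footprints with vehicle. Every mouse was a 4-week-old FVB/N female of the genotype MMTV-Wnt1 / MMTV-iFgfr1, so the vehicle mice carried the active Wnt1 transgene as well. AP20187, or vehicle alone, was given i.p. and left to act for 6 h. The MMTV promoter, of viral origin, drives transgenes mainly in epithelial cells of this gland. The product of MMTV-iFgfr1 is a drug-inducible form of FGF receptor 1, and AP20187 switches it on by dimerizing it. The comparison asks what acute FGFR1 signalling adds in glands that already have WNT signalling. No group received AP20187 without iFGFR1, so effects of the compound and of the receptor cannot be told apart. Cells from glands 3, 4 and 5 were freed with collagenase A and enriched for epithelium by short spins, and no cell sort is named in the labels. For every library the digestion took 2 h at 37 °C, and cycloheximide, an inhibitor of elongation by ribosomes, was used at 100 µg/ml. Separate or pooled mice per library are not stated, so each p-value reflects only spread among these samples, part of which may be technical.

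Milk is made by luminal cells of the alveoli, which mature in pregnancy under prolactin, acting through STAT5, together with progesterone and glucocorticoids. Casein genes are the classic targets of that pathway. Csn3 encodes kappa-casein, the casein that sits on the surface of the micelle and keeps it in suspension. Xdh encodes xanthine dehydrogenase/oxidoreductase, a molybdenum enzyme that oxidizes hypoxanthine and xanthine to uric acid. In the lactating gland the same protein helps to wrap lipid droplets in membrane as milk fat globules are secreted, and outside the gland Xdh is also an interferon-inducible gene. Glycam1 encodes a mucin-like glycoprotein made both by milk-secreting epithelium and by the high endothelial venules of lymph nodes, where it carries ligands for L-selectin. A mouse of this age is pubertal and its glands do not lactate.

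The opening of each coding sequence is shown to identify the transcripts and because Csn3 and Glycam1 encode secreted proteins, whose signal peptides begin here. Each line gives the first 60 coding bases of the GENCODE transcript on GRCm38, 5′ to 3′, with the start codon in capitals.
Xdh: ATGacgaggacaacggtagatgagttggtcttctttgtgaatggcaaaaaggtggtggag
Csn3: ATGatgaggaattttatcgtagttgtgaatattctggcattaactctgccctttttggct
Glycam1: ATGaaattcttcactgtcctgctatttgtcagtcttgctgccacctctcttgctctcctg
Xdh lies on the minus strand of chr17:73883895-73950196 and its transcript has 36 exons, 4600 bases and 4005 coding bases. Csn3 lies on the plus strand of chr5:87925579-87932665 with 5 exons, 991 bases and 543 coding bases. Glycam1 lies on the minus strand of chr15:103562759-103565081 with 4 exons, 628 bases and 453 coding bases. An antisense gene, 1700066N21Rik, spans Csn3 on the opposite strand and shares 0 exon bases with it. A processed pseudogene, CT025731.2, lies within Xdh on its own strand and also shares 0 exon bases. Neither is among the listed genes.

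The promoter of Glycam1 is shown because its levels went the opposite way to those of the other two. It was the only one of the 3 matched in the RefSeq promoter table. The 250 bases before the gene start, chr15:103565082-103565331 of GRCm38.p6 on the minus strand, are printed with a match to the STAT core TTCNNNGAA in capitals.
Glycam1 promoter: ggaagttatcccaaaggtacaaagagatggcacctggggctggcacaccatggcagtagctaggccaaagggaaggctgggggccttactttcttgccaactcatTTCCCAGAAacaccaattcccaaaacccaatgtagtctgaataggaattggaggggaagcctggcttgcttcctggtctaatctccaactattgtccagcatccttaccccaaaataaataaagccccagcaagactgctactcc
The match starts 145 bases before the gene start, and the motif is its own reverse complement, so both strands were searched at once. The same pattern was present in 7.02% of 32817 RefSeq promoter windows of this length. The glucocorticoid receptor half-site AGAACA, searched on both strands, had 0 matches in this window and was present in 16.1% of all windows. These matches describe letters and were not tested as binding sites.

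Over the listed genes the RNA libraries held 94513818 to 251874393 counts and the footprint libraries 1772969 to 11018709. The lowest count of any of the 3 genes was 586 in an RNA library and 178 in a footprint library, both of Glycam1 with AP20187, so each level stood far above a floor of 3 counts. Levels are given as CPM, meaning counts divided by the TMM-adjusted size of their library, so each change is relative to the other genes. A change was called at an adjusted p under 0.05 in edgeR's quasi-likelihood test. In these unsorted bulk samples, fewer cells of a type and less RNA per cell cannot be told apart.

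Xdh RNA was higher with AP20187 in every library. It stood at 968, 670 and 619 CPM in AP20187 libraries 1, 2 and 3, against 268, 282 and 213 CPM in vehicle libraries 1, 2 and 3. The lowest AP20187 library stood well above the highest vehicle library. Within a group, the highest library held 1.56 times the level of the lowest with AP20187 and 1.32 times with vehicle. Over all 7318 genes, the RNA groups did not overlap in this direction for 21.9% and in the other direction for 23.1%. Xdh averaged 752 ± 189 CPM with AP20187 and 254 ± 36.5 CPM with vehicle (SD, n = 3 each). The RNA level rose 2.96-fold, or by 1.57 ± 0.21 log2 units (SE; adjusted p = 0.00625, 95% interval 1.08 to 2.05). It passed without each of the 6 libraries in turn, with log2 fold changes of 1.36 to 1.70. Across all 7314 genes tested in RNA, 12.4% were called higher and 13.9% lower.

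Ribosome footprints on Xdh, which count the protein-making ribosomes caught on its transcript, rose by a like amount. They stood at 1159, 688 and 569 CPM in AP20187 libraries 1, 2 and 3, against 218, 291 and 234 CPM in vehicle libraries 1, 2 and 3. Again the groups did not overlap, as was so for 11.6% of all genes with AP20187 higher and 11.6% with AP20187 lower, and AP20187 library 1 was the highest. Xdh footprints averaged 805 ± 312 CPM with AP20187 and 248 ± 38.3 CPM with vehicle (SD, n = 3 each). The footprint log2 fold change was 1.70 ± 0.32 (SE; adjusted p = 0.0244). Only 0.937% of 7041 genes were called higher in footprints and 1.6% lower. This call held without AP20187 library 2 or 3 and was lost without AP20187 library 1 (1.35) or without vehicle library 1 (1.62), 2 (1.84) or 3 (1.66). The highest adjusted p of these fits was 0.0949.

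Csn3 RNA was also higher with AP20187, but from very uneven vehicle levels. It stood at 8417, 5136 and 10217 CPM in AP20187 libraries 1, 2 and 3, against 987, 2903 and 211 CPM in vehicle libraries 1, 2 and 3. The groups did not overlap, as for 21.9% of all genes with AP20187 higher, and the highest vehicle library held 13.7 times the level of the lowest. Kappa-casein transcripts took 0.828%, 0.531% and 1.01% of the counts over listed genes in the AP20187 libraries, against 0.0975%, 0.303% and 0.0204% in the vehicle libraries. Csn3 averaged 7923 ± 2576 CPM with AP20187 and 1367 ± 1386 CPM with vehicle (SD, n = 3 each). Its RNA rose 5.80-fold, or by 2.53 ± 0.78 log2 units (SE; adjusted p = 0.0455, 95% interval 0.75 to 4.32). The call was close to the threshold. It held without AP20187 library 2 (2.78), and without vehicle library 2 the change was 3.74 (adjusted p = 0.0136). It was lost without AP20187 library 1 (2.50) or 3 (2.32) and without vehicle library 1 (2.35) or 3 (2.03), with adjusted p-values up to 0.131. With upper-quartile scaling the adjusted p was 0.051, and with total-count scaling 0.0548.

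Csn3 footprints overlapped between the groups. They stood at 17280, 10635 and 3769 CPM in AP20187 libraries 1, 2 and 3, against 4813, 2461 and 514 CPM in vehicle libraries 1, 2 and 3. AP20187 library 3 lay below vehicle library 1, but within each number the AP20187 library was the higher one. Csn3 footprints averaged 10561 ± 6756 CPM with AP20187 and 2596 ± 2153 CPM with vehicle (SD, n = 3 each). The footprint log2 fold change was 2.02 ± 0.71 (SE) and did not pass (adjusted p = 0.173). Same-numbered footprint libraries of the 2 treatments deviated together across genes, and with the replicate number as a block the change was 2.27 (adjusted p = 0.000144). That block raised the calls over all genes to 353 higher and 362 lower, against 66 and 113 without it.

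Glycam1 went the other way. Its RNA stood at 66.9, 263 and 6.30 CPM in AP20187 libraries 1, 2 and 3, against 599, 1000.4 and 1211 CPM in vehicle libraries 1, 2 and 3. The groups did not overlap, as for 23.1% of all genes with AP20187 lower, and among the AP20187 libraries number 2 held 41.7 times the level of number 3. Glycam1 RNA averaged 112 ± 134 CPM with AP20187 and 937 ± 311 CPM with vehicle (SD, n = 3 each). The log2 fold change was -3.07 ± 1.03 (SE; 95% interval -5.41 to -0.72), which put Glycam1 14th from the bottom of 7314 genes, but the adjusted p of 0.0581 missed the threshold. The change passed in 2 of the 6 fits that each left out 1 library. These were without AP20187 library 2 (-4.66, adjusted p = 0.0123) and without AP20187 library 3 (-2.50, adjusted p = 0.018). It missed the threshold without AP20187 library 1 or any 1 vehicle library, with adjusted p-values up to 0.15, and with the replicate number as a block. DESeq2 gave -3.06 (adjusted p = 0.0128) and limma voom -4.12 (adjusted p = 0.0233).

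Glycam1 footprints were more even with vehicle and fell past the threshold. They stood at 289, 435 and 47.2 CPM in AP20187 libraries 1, 2 and 3, against 2360, 1840 and 2196 CPM in vehicle libraries 1, 2 and 3. The highest AP20187 library lay below the lowest vehicle library, a separation that 11.6% of all genes had with AP20187 lower, and number 3 was again the lowest AP20187 library. Footprints averaged 257 ± 196 CPM with AP20187 and 2132 ± 266 CPM with vehicle (SD, n = 3 each). The footprint log2 fold change was -3.05 ± 0.62 (SE; adjusted p = 0.032), an 8.30-fold lower level, ranking 18th from the bottom of 7041 genes. The call held without AP20187 library 2 (-3.66) or 3 (-2.56) and was lost without AP20187 library 1 (-3.14) or vehicle library 1 (-2.97), 2 (-3.15) or 3 (-3.03), with adjusted p-values up to 0.104.

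**Figure D1:**
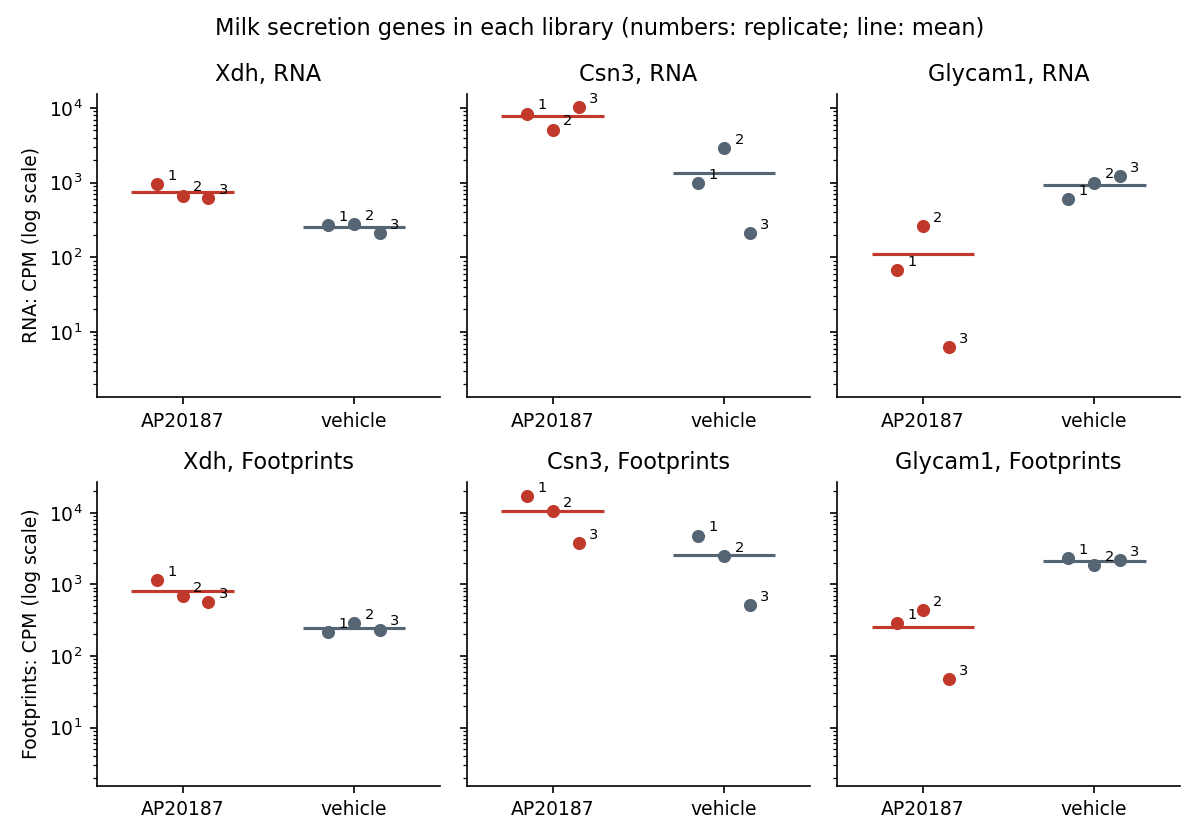
Level of each gene in every library, in CPM on a log axis, with RNA in the top row and footprints in the bottom row; points are libraries with their replicate number and lines are group means. Xdh RNA points with AP20187 lie from 619 to 968 CPM, and Xdh footprint points with AP20187 from 569 to 1159 CPM. Csn3 vehicle RNA points spread from 211 to 2903 CPM. Glycam1 RNA points with AP20187 spread from 6.30 to 263 CPM, all below the vehicle points.

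Levels of the 3 genes can be set against each other only per length. Per kilobase of transcript, Csn3 RNA averaged 7995 ± 2600 CPM with AP20187 and 1380 ± 1398 CPM with vehicle. Glycam1 RNA averaged 178 ± 213 CPM per kilobase with AP20187 and 1492 ± 494 with vehicle, and Xdh 163 ± 41.0 with AP20187 and 55.2 ± 7.94 with vehicle (SD, n = 3 each). The mean order was therefore Csn3, Glycam1, Xdh with AP20187 and Glycam1, Csn3, Xdh with vehicle. In the AP20187 libraries Glycam1 spanned 10.03 to 418 CPM per kilobase and Xdh 134 to 210, so these neighbours did not differ beyond their spread. In the vehicle libraries Csn3 spanned 213 to 2930 CPM per kilobase and Glycam1 954 to 1928, so they too overlapped. Footprints per kilobase of coding sequence averaged 19450 ± 12442 CPM with AP20187 and 4781 ± 3964 with vehicle for Csn3. They averaged 567 ± 432 with AP20187 and 4707 ± 587 with vehicle for Glycam1, and 201 ± 77.9 with AP20187 and 61.9 ± 9.56 with vehicle for Xdh.

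Translational efficiency, footprints over RNA of the same gene, asks whether ribosomes were loaded more or less densely on each transcript after AP20187. The log2 change was 0.09 ± 0.38 for Xdh (SE; 95% interval -0.73 to 0.90), -0.58 ± 1.15 for Csn3 (-3.06 to 1.90) and -0.03 ± 1.24 for Glycam1 (-2.69 to 2.62). None of the 3 passed (adjusted p = 0.995, 0.994 and 0.998), and none had an unadjusted p under 0.05 or passed in DESeq2 or limma voom. In edgeR 0% of 7315 genes were called, with 350 at an unadjusted p under 0.05, and DESeq2 called 8 higher and 2 lower while limma voom called 0. The intervals leave room for changes of more than 2-fold in either direction for Csn3 and Glycam1 and for changes of less than that for Xdh. The sign of the Glycam1 value turned under several settings.

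**Figure D2:**
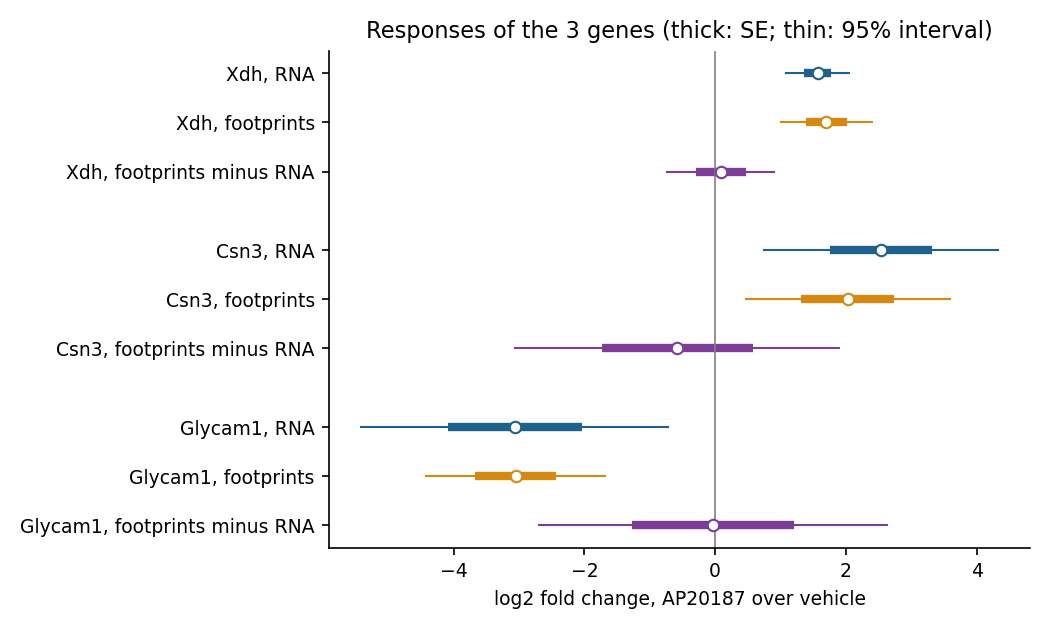
Log2 fold change with AP20187 over vehicle for each gene in RNA and in footprints, and the difference of both (footprints minus RNA, the change in translational efficiency); thick bars are SE and thin bars 95% intervals. Xdh and Csn3 lie right of 0 and Glycam1 left of it in both assays, while every footprints-minus-RNA interval spans 0.

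The ratio itself differed in evenness between the genes. For Xdh the log2 ratio of footprint to RNA CPM was 0.26, 0.04 and -0.12 for numbers 1, 2 and 3 with AP20187, against -0.29, 0.05 and 0.14 with vehicle. For Csn3 it was 1.04, 1.05 and -1.44 with AP20187, against 2.29, -0.24 and 1.28 with vehicle. For Glycam1 it was 2.11, 0.73 and 2.91 with AP20187, against 1.98, 0.88 and 0.86 with vehicle. Glycam1 was thus the one gene with more footprint than RNA CPM at all 6 treatment and number combinations, Xdh stayed near equal shares, and Csn3 swung by more than 2 log2 units within each treatment. The fitted footprints-over-RNA value of Glycam1 was 1.31 with AP20187 (adjusted p = 0.259) and 1.34 with vehicle (adjusted p = 0.224). Of the 3 genes 0 were called at either treatment, also at an unadjusted p under 0.05, in DESeq2 and in limma voom, against 39.9% of genes called with AP20187 and 50.9% with vehicle. Without AP20187 RNA library 2 the value of Glycam1 with AP20187 was 2.90 and passed (adjusted p = 0.0262). With RNA and footprint libraries of the same treatment and number paired as 1 cell pellet, Glycam1 passed with AP20187 (2.01, adjusted p = 0.00262) and with vehicle (1.38, adjusted p = 0.0106). Across genes, same-numbered RNA and footprint libraries correlated in their deviations from the group means at 0.47, 0.54 and 0.365 with AP20187. With vehicle these correlations were 0.026, 0.087 and 0.36, so numbers 1 and 2 hardly paired there, which limits the vehicle values by number.

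**Figure D3:**
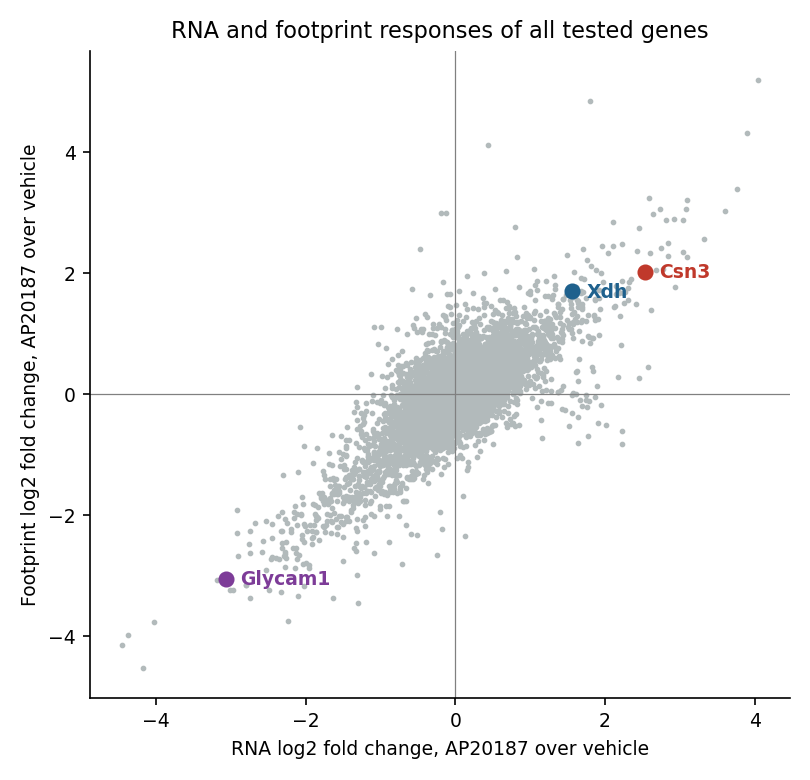
RNA log2 fold change (x) against footprint log2 fold change (y), AP20187 over vehicle, for every gene tested in both assays (grey) with the 3 genes named. Xdh (1.57, 1.70) and Csn3 (2.53, 2.02) lie in the upper right arm and Glycam1 (-3.07, -3.05) near the tip of the lower left arm.

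The genes whose RNA followed each of the 3 most closely over the 6 RNA libraries were found by the root mean square difference of centred log2 CPM among 6853 genes. Closest to Xdh was Fkbp5, a glucocorticoid-induced co-chaperone of steroid receptors, at 0.0541 log2 units, against a median of 0.826 for all genes. Garem, Ppp2r5b, Lap3 and Orai1 followed, Orai1 being the pore of the store-operated calcium channel, a route of calcium entry in milk-secreting cells. Their RNA log2 fold changes were 1.55 for Fkbp5, 1.34 for Garem, 1.55 for Ppp2r5b, 1.44 for Lap3 and 1.52 for Orai1, changes that follow from the choice of the genes on these same libraries. No test is given for them or for the like genes of Csn3 and Glycam1.

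The genes nearest to Csn3 were less close. First was Pigr, the receptor that carries IgA across epithelium into secretions, at 0.512 log2 units, against a median of 1.95. Thrsp, a regulator of milk fat synthesis, Aqp5, a water channel, Spp1, the milk phosphoprotein osteopontin, and Folr1, a folate receptor, came next. Their RNA log2 fold changes were 2.35 for Pigr, 1.70 for Thrsp, 2.78 for Aqp5, 3.33 for Spp1 and 1.64 for Folr1. Without vehicle library 2, the highest for Csn3 among the vehicle libraries, Thrsp had 2.91 and Folr1 2.53. Without vehicle library 3, the lowest for Csn3, Thrsp had 1.19 and Folr1 1.19. Such shifts follow from choosing these genes for likeness to Csn3 on these same libraries.

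Nearest to Glycam1 was Cd209b, a C-type lectin of marginal zone and lymph node macrophages, at 0.777 log2 units, against a median of 2.63. Also among the nearest were Fgb, the fibrinogen beta chain, Crym, a thyroid hormone-binding protein, and Adh1, an alcohol dehydrogenase. RNA log2 fold changes were -2.75 for Cd209b, -2.97 for Fgb, -2.12 for Crym and -2.91 for Adh1. Without AP20187 library 2, the highest for Glycam1 among the AP20187 libraries, they were -3.88, -4.10, -3.60 and -3.97. Without AP20187 library 3, the lowest for Glycam1, they were -2.21, -2.58, -1.62 and -2.43. These genes were chosen for likeness to Glycam1 on these same libraries, so shifts of this kind follow from the choice. Between the 3 genes themselves the difference was 1.31 log2 units for Xdh and Csn3, 3.25 for Xdh and Glycam1 and 4.28 for Csn3 and Glycam1.

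Among the other genes of milk secretion, those for proteins secreted into milk besides caseins were mostly higher with AP20187. Of 7 measured, 6 rose in RNA and 0 fell, with a median log2 fold change of 1.90 against 0.01 over all genes, and the count was 5 or 6 when any 1 library was left out. Over all genes 12.4% were called higher and 13.9% lower in RNA, and 0.937% higher and 1.6% lower in footprints. Spp1 averaged 4954 ± 1204 CPM with AP20187 and 492 ± 266 CPM with vehicle (SD, n = 3 each). Trf, the iron carrier transferrin, rose by 2.25 ± 0.36 log2 units (SE; adjusted p = 0.00755). Ltf, the iron-binding antimicrobial lactoferrin, rose by 1.71 and Lbp, which binds bacterial lipopolysaccharide, by 1.02. In footprints 3 of 7 rose (Spp1, Ltf and Trf), and 6 with the replicate block, which also raised the calls over all genes. No other casein or whey gene could be set beside Csn3, since 0 of 8 on that list are among the listed genes.

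Genes of the milk fat globule, the structure Xdh helps to form, changed in both directions. Of 7 measured, 2 rose and 3 fell in RNA (median 0.75), against 12.4% and 13.9% of all genes. Mfge8, a glycoprotein of the globule membrane, rose by 0.75, whereas Cd36, a fatty acid translocase also strong in fat and endothelium, had -2.06 (adjusted p = 0.00704). Rab18, a small GTPase of lipid droplets, had -0.69 (adjusted p = 0.0254), and Muc1, a membrane mucin, -0.77 (adjusted p = 0.0302). Cd36 passed in all 6 fits that each left out 1 library. Mfge8 was lost without vehicle library 1 or 3, Rab18 also without AP20187 library 1, and Muc1 also without AP20187 library 1 or 3. The rises numbered 0 without vehicle library 1 or 3, 1 without AP20187 library 1 or 2 and 4 without vehicle library 2. The falls numbered 1 without AP20187 library 1 or vehicle library 1 or 3. In footprints 0 of 7 passed in edgeR, 2 had an unadjusted p under 0.05, DESeq2 called 2 and limma voom 1, and with the replicate block 2 rose and 2 fell.

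Of 11 measured genes of milk lipid synthesis, 4 rose and 0 fell in RNA (median 0.60), against 12.4% and 13.9% of all genes. Fasn, fatty acid synthase, rose by 0.97, Scd2, a fatty acid desaturase, by 1.87, Me1, malic enzyme, by 1.06 and Acaca, acetyl-CoA carboxylase, by 0.60. The count was 2 without vehicle library 1 and 1 without vehicle library 3. Me1 passed in all 6 fits that each left out 1 library. Without vehicle library 3 the others were lost, without vehicle library 1 Scd2 and Acaca, and without AP20187 library 1 Acaca, and without AP20187 library 2 Scd2 had 1.26. In footprints 0 of 11 passed in edgeR, 4 had an unadjusted p under 0.05, DESeq2 called 3 and limma voom 1, and with the replicate block 5 rose.

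Of 14 genes of lactose synthesis and nutrient transport, 4 rose and 1 fell in RNA (median 0.51), against 12.4% and 13.9% of all genes. Slc7a5, a large neutral amino acid transporter, rose by 1.62, and Slc2a1, the glucose transporter GLUT1, by 0.81. Slc2a1 was lost without vehicle library 3. Aqp5 rose by 2.78. The rises numbered 3 to 6 when any 1 library was left out, and the fall was lost without AP20187 library 1 or 3 or vehicle library 1 or 3. In footprints 3 of 14 rose, and 4 with the replicate block.

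The prolactin and STAT5 pathway had 6 measured members, of which 2 rose and 0 fell in RNA (median 0.27). The shares over all genes were 12.4% and 13.9%. The rises were Gata3, a luminal transcription factor (1.21, adjusted p = 0.0365), and Cebpb, a factor needed for alveolar development (0.43, adjusted p = 0.0393). Gata3 was lost without AP20187 library 1 or 2 or vehicle library 1 or 3, and Cebpb without any 1 library other than AP20187 library 2. The count was 0 without AP20187 library 1 or vehicle library 1 or 3. Nfib had 0.39 (adjusted p = 0.0895) and Nr3c1, the glucocorticoid receptor, -0.25 (adjusted p = 0.171). In footprints 0 of 6 passed in edgeR, 1 had an unadjusted p under 0.05, DESeq2 called 1 and limma voom 0, and with the replicate block 1 rose.

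For the enzyme role of Xdh, 13 other genes of purine oxidation and the molybdenum cofactor were measured, of which 4 rose and 3 fell in RNA (median -0.13). The shares over all genes were 12.4% and 13.9%. Mocos, which sulfurates the molybdenum cofactor that Xdh needs for activity, rose by 1.37 ± 0.18 log2 units (SE; adjusted p = 0.0059). Nt5e, the ectoenzyme that makes adenosine from AMP, rose by 2.18. Aox3, an aldehyde oxidase related to Xdh, fell to 4.47 ± 2.76 CPM with AP20187, against 33.8 ± 9.37 CPM with vehicle (SD, n = 3 each; log2 fold change -2.92, adjusted p = 0.00728), and Pnp, which releases hypoxanthine from inosine, had -0.94 (adjusted p = 0.0131). These 4 passed in all 6 fits that each left out 1 library, and the count of rises was 2 without vehicle library 3. In footprints 1 of 13 rose, and 3 rose and 1 fell with the replicate block.

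Interferon-stimulated genes were followed because Xdh is interferon-inducible. Of 14 measured, 7 rose and 0 fell in RNA (median 1.77), against 12.4% and 13.9% of all genes. Gbp4 averaged 246 ± 229 CPM with AP20187 and 29.2 ± 4.75 CPM with vehicle, and Oas2 120 ± 123 CPM with AP20187 and 14.6 ± 6.86 CPM with vehicle (SD, n = 3 each). Without AP20187 library 1 the log2 fold change of Gbp4 was 1.98, against 3.08 with all libraries, and that of Oas2 1.77, against 3.04. Without vehicle library 3 the adjusted p was 0.05 for Gbp4 and 0.077 for Oas2. The summed level of the list ranged from 1061 to 3828 CPM with AP20187, library 1 being the highest, and from 907 to 1124 CPM with vehicle. AP20187 library 1 was also the highest for Xdh, whose RNA log2 fold change without that library was 1.36. It was the highest AP20187 RNA library for the summed luminal progenitor and purine lists too, but not for the summed luminal epithelium list. The part of interferon signalling in the Xdh result was not tested. The list count was 11 without AP20187 library 2, 3 without vehicle library 1 or 2 and 1 without vehicle library 3, and limma voom called 4. In footprints 1 of 14 rose, and 6 rose with the replicate block. A change in translational efficiency was called in 0 of the 122 gene entries of all lists in edgeR, DESeq2 and limma voom, and 1 had an unadjusted p under 0.05.

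All list calls in footprints, cell type markers included, were lost without AP20187 library 1 or any 1 vehicle library, as were nearly all calls over the whole table.

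Cell type markers changed with AP20187 as well. The labelled epithelium was present in all libraries, the summed RNA of 7 luminal markers being 6176 to 8817 CPM with AP20187 and 3692 to 4673 CPM with vehicle. Of these 7, 5 rose and 1 fell, against 12.4% and 13.9% of all genes. The keratin genes Krt8 (1.15) and Krt18 (0.94) were among the rises and Krt19 (-1.13) was the fall, and these were chosen after their values were seen. Of 8 luminal progenitor markers, 4 of which (Ltf, Lbp, Trf and Lcn2) also stand on the milk protein list, 6 rose and 0 fell, with summed RNA of 12722 to 16024 CPM with AP20187 and 2188 to 5196 CPM with vehicle. Of 11 basal markers 1 rose and 6 fell, with sums of 3113 to 4736 CPM with AP20187 and 5759 to 6690 CPM with vehicle. The falls were Vim, Myh11, Krt14, Mylk, Tagln and Acta2, and the rise was Krt17 (0.89). Krt5 (0.80), Trp63 (0.60), Oxtr (0.09) and Cnn1 (-0.48) did not pass, so the basal markers did not move as one. The luminal rises numbered 2 without vehicle library 3 and the luminal falls 2 without AP20187 library 2. The 1 basal rise was lost without vehicle library 1 or 3 and became 2 without AP20187 library 1 or vehicle library 2. The basal falls numbered 3 without AP20187 library 1 or vehicle library 1 or 3. In footprints 3 of 8 luminal progenitor markers rose and 0 fell, while 1 luminal and 1 basal marker fell and 0 rose. Over all genes 0.937% were called higher and 1.6% lower in footprints. With the replicate block 6 progenitor markers rose, 2 luminal markers rose and 2 fell, and 7 basal markers fell.

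Most endothelial, fibroblast and adipocyte markers were lower with AP20187, where 12.4% of all genes were called higher and 13.9% lower in RNA. All 5 measured endothelial markers fell, with summed RNA of 336 to 371 CPM with AP20187 and 608 to 818 CPM with vehicle, and this count was 3 without AP20187 library 1 and 2 without vehicle library 3. Of 7 fibroblast markers 6 fell, whichever library was left out, with sums of 1344 to 1818 CPM with AP20187 and 3554 to 6145 CPM with vehicle. Of 5 adipocyte markers 4 fell, with sums of 49.2 to 105 CPM with AP20187 and 266 to 517 CPM with vehicle, and the count was 2 without AP20187 library 1 or vehicle library 3. Of 4 macrophage markers 1 rose and 0 fell, with sums of 180 to 273 CPM with AP20187 and 201 to 381 CPM with vehicle, and the rise was lost without AP20187 library 1 or vehicle library 1 or 3. None of these markers was at 0 in an RNA library. In footprints 2 of 5 endothelial, 5 of 7 fibroblast, 2 of 5 adipocyte and 0 of 4 macrophage markers fell, and 0 rose. Over all genes 0.937% were called higher and 1.6% lower in footprints. With the replicate block, which also raised the calls over all genes, the falls numbered 5, 7, 3 and 1.

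For the venule source of Glycam1, Cd34 was the one measured marker of 10 besides Glycam1 itself. Cd34 stood at 52.4 to 64.7 CPM with AP20187 and 59.0 to 99.2 CPM with vehicle (log2 fold change -0.41, adjusted p = 0.159), and its groups overlapped. Cd34 alone does not measure how much venule tissue a library held. Of 15 lymphocyte markers, Ptprc and Coro1a were measured, with summed RNA of 34.1 to 67.1 CPM with AP20187 and 43.8 to 143 CPM with vehicle, and 0 of 2 passed in edgeR. Both had an unadjusted p under 0.05 (log2 fold changes of -0.96 for Ptprc and -1.09 for Coro1a), DESeq2 called 2 and limma voom 0, and both fell in edgeR without vehicle library 1. The other venule and lymphocyte markers on these lists are not among the listed genes, and the part of lymph node tissue in the Glycam1 result was not tested.

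**Figure D4:**
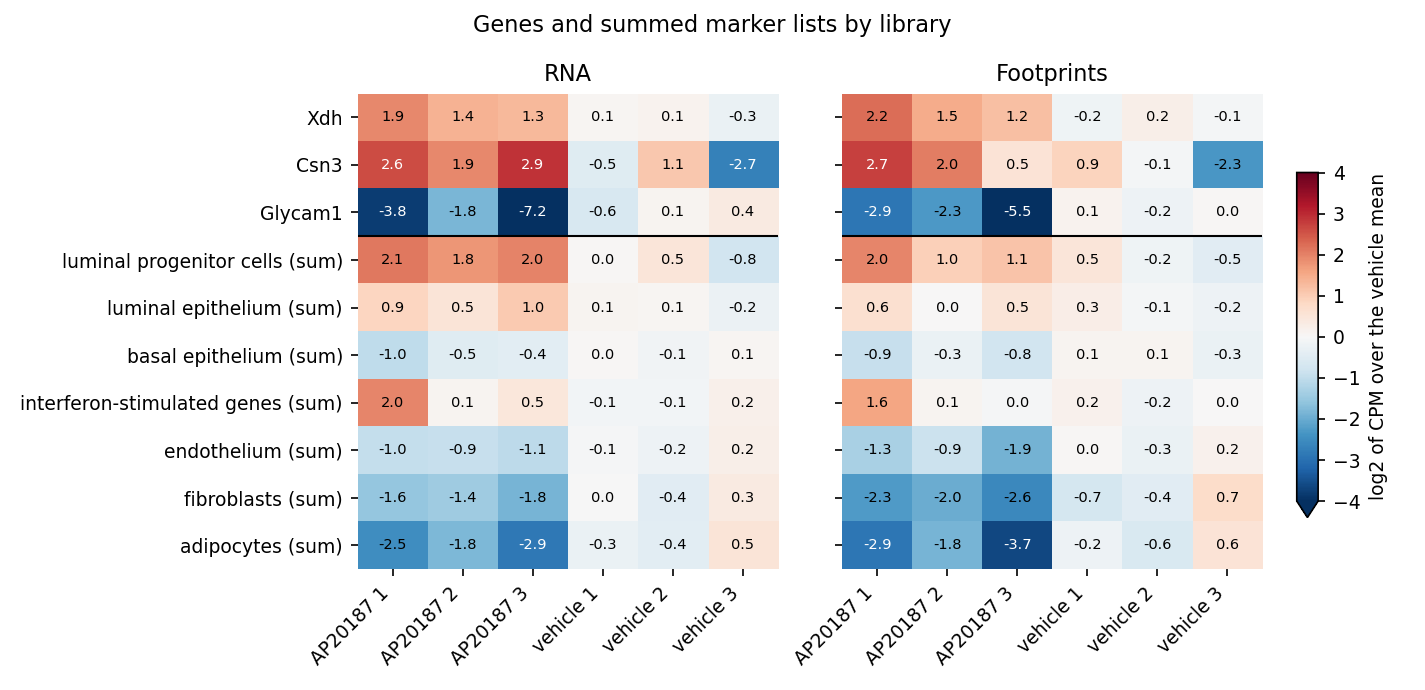
Log2 of CPM over the vehicle mean of the same assay for the 3 genes (top rows) and for summed marker lists, in each RNA library (left) and footprint library (right). Colours saturate at 4 log2 units either way and the printed number gives the value. Glycam1 is lowest in AP20187 library 3, the library that is also lowest for summed endothelial, fibroblast and adipocyte markers. In the AP20187 RNA libraries the endothelial sum ran from -1.06 to -0.92 and the fibroblast sum from -1.84 to -1.41. The adipocyte sum ran from -2.87 to -1.78 and Glycam1 from -7.22 to -1.83, and a link between them was not tested.

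Because these lists moved, both responses were recomputed with the libraries scaled to the summed counts of a marker list, a choice made after seeing the data. Relative to luminal markers, Xdh RNA was higher by 0.78 ± 0.27 (SE; adjusted p = 0.0136) and Xdh footprints by 1.27 ± 0.38 (adjusted p = 0.0565). Csn3 was higher by 1.76 in RNA and in footprints (adjusted p = 0.0377 in footprints). Glycam1 was lower by this measure as well, at -3.71 ± 0.58 in RNA (adjusted p = 2.7e-06) and -3.31 in footprints. Relative to endothelial markers, Glycam1 had -2.13 ± 0.75 in RNA (adjusted p = 0.017) and -1.94 in footprints. By the same measure Xdh had 2.50 in RNA and 3.01 in footprints, and Csn3 3.38 in RNA and 3.23 in footprints. All 3 genes kept their direction relative to either list, but the shift of all genes was smaller than the main change of each. These scalings moved every gene, the median of all genes being -0.79 in RNA and -0.36 in footprints with the luminal scale and 0.97 and 1.41 with the endothelial scale. Relative to that median, the RNA values of Xdh, Csn3 and Glycam1 were 1.57, 2.55 and -2.91 on the luminal scale and 1.53, 2.41 and -3.11 on the endothelial scale. The footprint values were 1.63, 2.11 and -2.95 on the luminal scale and 1.60, 1.81 and -3.35 on the endothelial scale. The adjusted p-values on these scales test against 0 and not against that median.

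**Figure D5:**
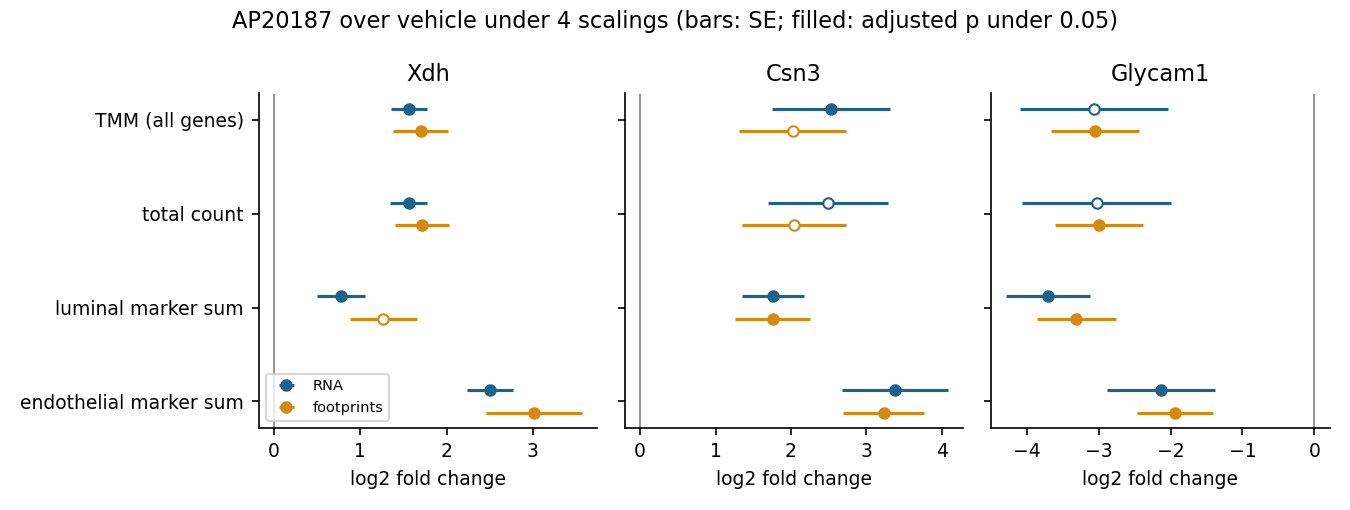
Log2 fold change with AP20187 over vehicle (bars: SE) in RNA and footprints under 4 scalings of the libraries; filled points have an adjusted p under 0.05. Xdh and Csn3 stay above 0 and Glycam1 below 0 under each scaling, with Xdh RNA at 0.78 relative to luminal markers.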

How the data were processed

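The authors deposited raw, unscaled read counts for 7318 genes in 12 libraries. Tools named in the submitters' processing notes are HTSeq, STAR, Bowtie2, cutadapt and bcl2fastq 1.8.3, with build mm10. Not given in the sources used here are their settings, the strand setting and how the genes were chosen. Without full totals, library sizes are sums over the listed genes. Per the labels' protocols, RNA libraries were stranded and poly(A)-selected and both libraries of a number came from a cell pellet treated with cycloheximide, an inhibitor of elongation that can pile up ribosomes near start codons.

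From the deposited counts, edgeR 4.0.16 in R 4.3.3 gave TMM-scaled CPM and, after filterByExpr, 2-sided quasi-likelihood tests over all genes with Benjamini-Hochberg adjustment at 0.05. RNA and footprint responses were each fitted on 6 libraries with treatment as the only term, and translational efficiency as the interaction over 12. SEs derive from the F statistic. DESeq2 1.42.0, limma voom 3.58.1, other scalings, no filter, replicate and pellet blocks and leaving out each library were alternatives. The procedure was also run on simulated counts drawn independently per library, without pairing by replicate number, and the outcome is not reported here.

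Same-numbered AP20187 and vehicle libraries correlated in their deviations from the group means at 0.24, 0.30 and 0.44 in footprints, which pairs them, and at 0.21, -0.06 and -0.04 in RNA, which does not.

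The 3 genes, the 8 pathway and 9 marker lists and the tests were chosen with earlier results of these data known. Named list genes are the 4 with the smallest RNA p per pathway list, and like genes the 5 nearest with a mean of at least 5 CPM (pseudocount 0.5 CPM), without predicted genes, RIKEN clones or pseudogenes; some genes that met these rules are not reported here.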

Additional observations from a re-analysis of the deposited data

How the results depend on the processing

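Across every setting run, leave-one-out fits included, the RNA and footprint responses of all 3 genes kept their direction. Csn3 RNA lost its call with upper-quartile scaling (2.52), total-count scaling (2.49) and the replicate block (3.15, adjusted p = 0.0863), although the numbers do not pair the RNA libraries. Glycam1 RNA gained a call in DESeq2 (-3.06), in limma voom (-4.12) and relative to luminal (-3.71) or endothelial (-2.13) markers. Csn3 footprints gained one with the replicate block (2.27) and relative to luminal (1.76) or endothelial (3.23) markers, and Xdh footprints lost theirs relative to luminal markers (1.27). The marker scalings moved all genes, while the tests stayed against 0. Relative to the median of all genes, Csn3 footprints had 2.11 (luminal) and 1.81 (endothelial), against 2.00 in the main fit. Glycam1 RNA had -2.91 and -3.11, against -3.08, and Xdh footprints 1.63 on the luminal scale, against 1.67. The block also gave 353 higher and 362 lower genes in footprints, and 661 lower in RNA against 1013. DESeq2 called 213 higher and 315 lower in footprints and 8 higher and 2 lower in translational efficiency. The translational efficiency change of Glycam1 was above 0 with DESeq2 size factors (0.015), total-count scaling (0.037), DESeq2 (0.015), limma voom (0.70), the replicate block (0.26), the pellet block (0.62) and luminal (0.39) or endothelial (0.19) scaling. Footprints over RNA turned sign for Csn3 with AP20187 under the replicate block (-0.11) and for Xdh with vehicle under total-count scaling (-0.052), and Glycam1 passed under the pellet block (2.01 with AP20187, 1.38 with vehicle). The causes of these shifts were not tested. The replicate and pellet blocks changed no other call of the 3 genes.

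Leaving out each library in turn gave Csn3 RNA 2.03 to 3.74, Glycam1 RNA -4.66 to -2.50, Xdh footprints 1.35 to 1.90 and Glycam1 footprints -3.66 to -2.56. Genes called in RNA numbered 247 to 1048 higher and 291 to 1166 lower, in footprints 0 to 84 higher and 0 to 123 lower, and in translational efficiency 0 to 1 higher. Translational efficiency changes ranged from -0.21 to 0.33 for Xdh, from -1.76 to 0.29 for Csn3 and from -0.63 to 1.56 for Glycam1. Footprints over RNA with AP20187 ranged from -0.17 to 0.42 for Xdh, from -0.067 to 0.88 for Csn3 and from 0.71 to 2.90 for Glycam1, and with vehicle from -0.10 to 0.19 for Xdh, from 0.19 to 2.26 for Csn3 and from 1.10 to 1.57 for Glycam1. With 3 libraries a group and footprint depths down to 1772969 counts, intervals stay wide for Csn3 and Glycam1.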
